A study of Mus musculus with 27 samples.

Results

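Mouse epiblast stem cells (EpiSCs) were compared with epiblast-like cells (EpiLCs) over all genes, in 4 of the 27 samples of the series. These 4 samples are 2 EpiSC and 2 EpiLC libraries of bulk RNA-seq made from total RNA. The members of both groups were taken from the sample labels alone, so no measured value chose them. The rest of the series holds mouse embryonic stem cells (mESCs), 3D cultures between the naive and primed states and long-term formative cells (fPSCs). Of these, 2 mESC and 7 fPSC libraries served to estimate the spread and are given for reference. They also counted in the filter that chose which genes were tested. All samples are labelled wild type. Some of the fPSC libraries nevertheless came from lines that carry fluorescent reporters per the study, among them BVSC and ROSAmTmG. The label therefore does not exclude transgenes, and their part in the spread was not tested. EpiLCs were cultured in N2B27 medium with 1% knockout serum replacement (KSR). Activin A was added at 20 ng/ml, and bFGF2 at 12 ng/ml. EpiSCs received the same doses of Activin A and bFGF2 with 15% KSR and 5 uM XAV939, a tankyrase inhibitor that stabilizes Axin and so damps canonical Wnt signalling, and were grown on mouse embryonic fibroblasts that had been inactivated with mitomycin C. State, medium, inhibitor and feeder layer therefore differ together between the groups and cannot be told apart. The labels do not say which lines or embryos the EpiSCs and EpiLCs came from, nor whether the replicates were separate cultures. The p-values therefore measure only the spread between libraries, pooled over the 13 of the fit. This spread includes that of the 7 fPSC libraries, which differ in line and in passage (10 to 30). A gene that varies among the fPSC libraries thus gets a larger standard error here.

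As background, the epiblast of the mouse embryo gives rise to all tissues of the body. EpiLCs are a transient culture made from naive cells and stand for the formative epiblast just after implantation, which has left the naive state and can still give germ cells. EpiSCs are a stable culture that stands for the later, primed epiblast, in which genes of the germ layers begin to be transcribed. Cell identity on this path is tied to de novo DNA methylation, to an epithelial programme that includes Grhl2 and Cdh1, and to signals of the Nodal, FGF, BMP and Wnt families.

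Levels are given as FPKM, which divide the fragments of a gene by transcript length and library size. The sum over genes ran from 320918 to 383760 FPKM in the 4 libraries, with 10553 to 10933 genes at or over 1 FPKM. As counts were not given, the depth is unknown. Across 13248 genes, Pearson's r was 0.977 between the EpiLC libraries, 0.985 between the EpiSC libraries and 0.842 on average between the groups. These values are across genes, which are not independent replicates. Groups were compared with limma on log2(FPKM + 1), where a low gene shows less than its true fold change. To pass, a gene needed an adjusted p (Benjamini-Hochberg) below 0.05 together with a change of 1.5-fold or more. The test took only genes that 2 or more libraries of the fit held at 1 FPKM, so a gene that is silent in 1 group is tested only where another group holds it. All log2 differences are EpiSCs minus EpiLCs on this scale. A single gene tested by exact permutation of 2 against 2 libraries could not go below a two-sided p of 0.333, so only limma across all genes was used.

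Of 12513 genes tested, 4488 passed (35.9%), of which 2548 were higher in EpiSCs (20.4%) and 1940 were lower (15.5%). The median log2 difference of all genes tested was -0.03. Large differences were mostly increases, with 626 genes higher and 205 lower by at least 2 on the log2 scale. Leaving out 1 library moved these counts. Without EpiLCs replicate 2, 1897 genes were higher and 974 lower, and without EpiSCs replicate 2 the counts were 1462 and 963. Part of this came from the filter, since 273 of the 2548 higher genes were no longer tested without EpiSCs replicate 1 and 275 without EpiSCs replicate 2, having too few libraries at 1 FPKM. The 10 largest increases among genes at 10 FPKM or more were Col1a1, Anxa2, Wnt7b, Tnc, Acta2, Bgn, Anxa5, Loxl2, Cryab and Tagln. Several of these encode matrix or contractile proteins. Col1a1, Acta2 and Tagln are given with the fibroblast and contractile genes further on, while Tnc, Bgn and Loxl2 are in neither list. The 10 largest decreases were Dppa5a, Rhox5, Rps4l, Dnmt3l, Dppa4, Dppa2, Rpl10l, Rbmxl2, Eif2s3y and Mael. Rps4l, Rpl10l and Rbmxl2 are retrogene copies of X-linked genes and Rhox5 belongs to a multigene cluster, so reads could have been split between copies and their values are uncertain.

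**Figure D1:**
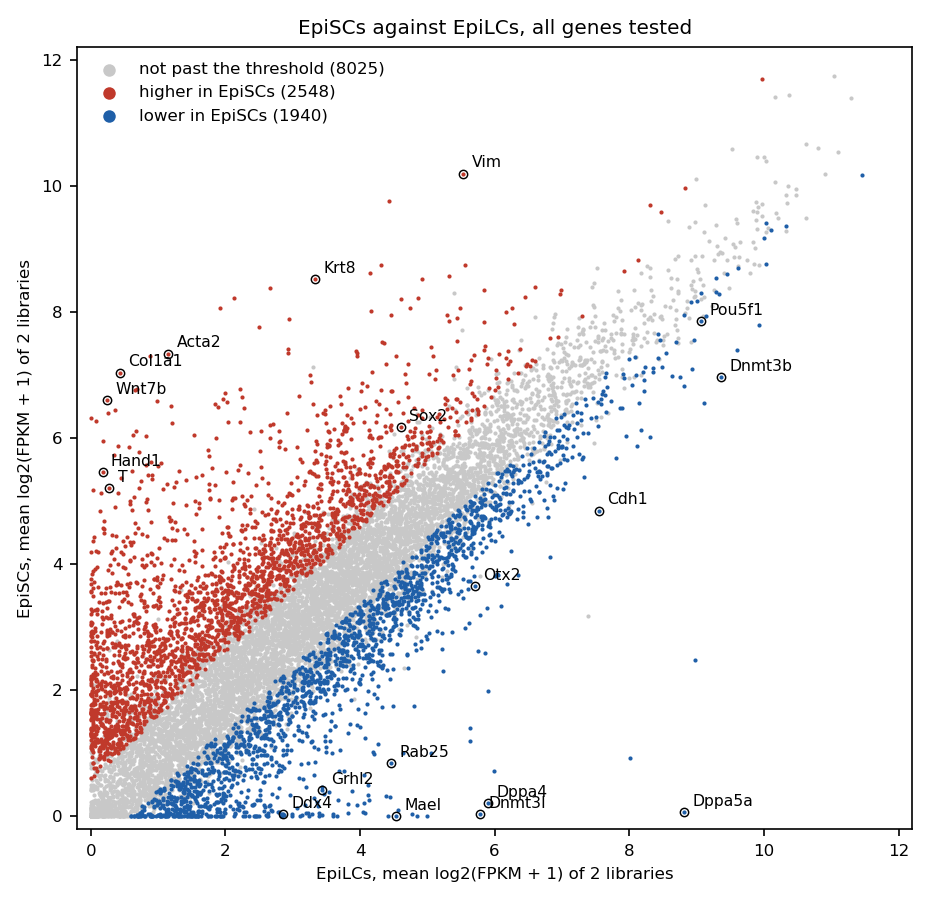
Mean log2(FPKM + 1) of the 2 EpiLC libraries (x axis) against the 2 EpiSC libraries (y axis), 1 point per gene tested, in red where higher in EpiSCs (2548), blue where lower (1940) and grey where not past the limma threshold (8025). Wnt7b, Col1a1, Acta2 and Hand1 lie at the upper left, and Dppa5a, Dppa4, Dnmt3l and Mael along the bottom.

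Pluripotency genes divided. Of 14 core genes, 2 rose and 9 fell in EpiSCs (14.3% and 64.3%, beside 20.4% and 15.5% of all genes), with a median log2 difference of -1.23. Pou5f1, which encodes Oct4, was at 391.9 and 732 FPKM in EpiLCs and at 226 and 234 FPKM in EpiSCs. The groups did not overlap and the log2 difference was -1.22 (standard error 0.42, limma adjusted p = 0.0382), but the call was lost without EpiLCs replicate 2 (limma adjusted p = 0.283), EpiSCs replicate 1 (0.129) or EpiSCs replicate 2 (0.13), and with no filter on low values (0.0602). Its partner Sox2 moved the other way, from 24.8 and 22.0 FPKM in EpiLCs to 80.8 and 62.3 FPKM in EpiSCs (log2 difference 1.56, standard error 0.27, limma adjusted p = 6.29e-04). Nanog also rose, from 8.60 and 8.0 to 19.6 and 15.7 FPKM (limma adjusted p = 0.00272). The largest falls in this list were Dppa4, at 45.5 and 75.6 FPKM in EpiLCs and 0.183 and 0.133 FPKM in EpiSCs, and its neighbour Dppa2, at 84.4 and 46.1 FPKM against 0.702 and 0.604 FPKM. Both encode DNA-binding proteins of early embryonic cells and lie next to each other on chromosome 16. Of 19 naive genes 3 rose and 8 fell (15.8% and 42.1%, beside 20.4% and 15.5% of all genes). Klf2 rose from 3.06 and 2.94 FPKM to 4.62 and 11.5 FPKM. Klf4 and Jam2 rose too, and were at 1.41 FPKM or less in EpiSCs. All 3 stayed far below their mESC levels. Dppa5a, which encodes an RNA-binding protein of naive cells, was still at 307 and 654 FPKM in EpiLCs, and in EpiSCs it was listed at 0 and at 0.108 FPKM. Zfp42, the gene of the naive marker Rex1, fell from 7.80 and 11.3 FPKM to 0.172 and 0.0711 FPKM.

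The 13 genes of the main formative list were lower in EpiSCs or did not pass, while Sox4 and Fgf8, which the study also proposes as formative markers, rose. The study chose this list on these samples, so its direction is not independent evidence. Of 13 genes, 9 fell (69.2%, beside 15.5% of all genes) and 0 rose, with a median log2 difference of -1.84 beside -0.03 for all genes. Otx2, a homeobox factor that guides the exit from the naive state, was at 50.8 and 51.6 FPKM in EpiLCs and 15.4 and 8.60 FPKM in EpiSCs (log2 difference -2.06, standard error 0.36, limma adjusted p = 7.52e-04). Fgf5, the classic marker of the early postimplantation epiblast, stood at 44.0 and 54.1 FPKM and at 10.3 and 14.7 FPKM. It was thus still present in EpiSCs, at a log2 difference of -1.90. Zic2, Lin28b, Etv1 and Etv4 did not pass. Pou3f1, an octamer-binding factor from a separate list of formative genes, was at 111 and 95.2 FPKM in EpiLCs and 35.7 and 47.7 FPKM in EpiSCs, and its call (limma adjusted p = 0.0384) was lost when any 1 of the 4 libraries was left out (0.0859 to 0.178), with a pseudocount of 0.1 (0.063), with no filter (0.0598) and after median-ratio scaling (0.0699). In that list 3 of 12 genes fell (Pou3f1, Dnmt3a and Dnmt3l) and 3 rose (Sox4, Fgf8 and Sall3). Each share was 25.0%, beside 15.5% lower and 20.4% higher of all genes. Sox4 lost its call without EpiLCs replicate 2 (limma adjusted p = 0.068) or EpiSCs replicate 1 (0.0619).

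The enzymes of de novo DNA methylation fell together. Dnmt3b was at 629 and 693 FPKM in EpiLCs and 121 and 126 FPKM in EpiSCs. Dnmt3a went from 118 and 106 FPKM to 16.6 and 16.0 FPKM. Dnmt3l, a cofactor without catalytic activity of its own, fell furthest, from 71.6 and 40.6 FPKM to 0.0416 and 0.0186 FPKM (log2 difference -5.74, standard error 0.42, limma adjusted p = 4.31e-07). The libraries of the groups lay far apart for all 3 genes. Hells, a chromatin remodeller that methylation depends on, and Tet1, which oxidizes methylcytosine, were the other 2 of the 5 genes of this list of 13 that fell, by 2.51 and 2.04 on the log2 scale. The 5 are 38.5% of the list, beside 15.5% of all genes. The maintenance enzyme Dnmt1 was at 49.2 and 41.1 FPKM in EpiLCs and 53.5 and 53.5 FPKM in EpiSCs, and neither it nor its partner Uhrf1 passed. Tet3 was the 1 gene that rose, and its call was lost without EpiLCs replicate 2 or EpiSCs replicate 1 (limma adjusted p = 0.242 and 0.223), with no filter (0.055) or after upper-quartile scaling (0.0508).

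Germline genes were lost or nearly lost in EpiSCs. The list of 18 genes of male or female germ cells was drawn up from genes known to be held silent by promoter methylation, and 12 of them reached the level to be tested. The other 6 were at 1.65 FPKM or less in each of the 4 libraries. All 12 that were tested fell (the background in this direction is 15.5%), though genes at or near 0 in EpiSCs could be tested only through the groups that held them, with a median log2 difference of -2.48, and without EpiLCs replicate 1 or 2 the count was 10, as 2 of the genes were then no longer tested and 0 lost the call. Mael, which takes part in transposon silencing in the testis, was at 18.7 and 26.3 FPKM in EpiLCs and was listed at 0 in both EpiSC libraries. Ddx4, the vasa helicase of germ cells, was at 5.90 and 6.66 FPKM, and at 0 and 0.0451 FPKM in EpiSCs. Hormad1, a protein of the meiotic chromosome axis, was at 5.495 and 10.6 FPKM and listed at 0 in both EpiSC libraries. In all, 9 of the 12 were listed at 0 in both EpiSC libraries (Mael, Hormad1, Fkbp6, Dazl, Taf7l, Slc25a31, Tex11, Stk31 and Rpl10l), for which no fold change is given. The summed level of the list was 93.8 and 116 FPKM in EpiLCs and 0.435 and 0.384 FPKM in EpiSCs. In the 7 fPSC libraries it ran from 0.289 to 1.45 FPKM.

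Promoter sequences of 17 of the 18 germline genes were matched in RefSeq (GRCm38.p6), taken from 250 bases before to 50 after each annotated start. The 6-base E-box CACGTG, which reads the same on both strands, was present in a promoter of 12 of the 17 (70.6%), and in 8.09% of 27018 genes with a promoter of this length. Of the 11 genes with a promoter that fell in EpiSCs, 9 held it. TCCCGC, searched on both strands, was found in 7 of the 17 and in 22.1% of all genes. A match of letters does not show that a factor binds there. The 200 bases before the start are shown for 3 of the genes that were lost, with each CACGTG in capitals, because this word is what their promoters share.
Fkbp6, chr5:135350045-135350244, minus strand: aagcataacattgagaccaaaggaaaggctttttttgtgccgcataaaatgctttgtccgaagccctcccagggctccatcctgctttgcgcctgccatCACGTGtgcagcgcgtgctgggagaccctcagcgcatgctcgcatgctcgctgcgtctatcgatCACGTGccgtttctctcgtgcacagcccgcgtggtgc
Hormad1, chr3:95559477-95559676, plus strand: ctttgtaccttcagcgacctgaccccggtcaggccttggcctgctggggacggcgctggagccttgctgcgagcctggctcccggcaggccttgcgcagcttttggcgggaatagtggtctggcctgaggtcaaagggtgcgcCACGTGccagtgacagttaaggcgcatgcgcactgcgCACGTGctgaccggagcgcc
Ddx4, chr13:112652311-112652510, minus strand: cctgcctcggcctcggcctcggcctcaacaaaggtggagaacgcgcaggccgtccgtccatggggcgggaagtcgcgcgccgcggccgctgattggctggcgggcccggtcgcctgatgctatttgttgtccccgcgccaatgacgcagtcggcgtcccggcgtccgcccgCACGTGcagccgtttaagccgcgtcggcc
Fkbp6 and Hormad1 each hold the word 2 times in this stretch, and Ddx4 holds it once. The 2 EpiLC libraries had 9.57 and 9.39 FPKM of Fkbp6, and both EpiSC libraries listed it at 0.

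Epithelial genes formed a second group that was lower in EpiSCs. Of those tested 65.7% were lower and 11.4% higher, beside 15.5% and 20.4% of all genes. Of 35 genes tested, 23 fell and 4 rose, with a median log2 difference of -1.25, and between 22 and 26 passed when 1 library was left out. Grhl2, a grainyhead factor that opens enhancers of epithelial genes, was at 10.46 and 9.31 FPKM in EpiLCs and 0.309 and 0.372 FPKM in EpiSCs (log2 difference -3.02, standard error 0.27, limma adjusted p = 2.34e-06). The level of Grhl2 in EpiSCs lay near that of mESCs (mean 0.346 FPKM), while the fPSC libraries ran from 3.45 to 7.14 FPKM. Cdh1, the gene of E-cadherin, fell from 199 and 176 FPKM to 26.8 and 28.9 FPKM. Epcam, a surface adhesion molecule, fell from 92.4 and 130 FPKM to 27.7 and 24.4 FPKM. Both genes stayed above 20 FPKM. Rab25, a GTPase of epithelial vesicle traffic, had 15.6 and 28.3 FPKM in EpiLCs and 0.664 and 0.955 FPKM in EpiSCs. The splicing regulators of epithelia fell as well, Esrp1 by 2.38 and Esrp2 by 1.44 on the log2 scale. Of the tight junction genes, Cldn7, Ocln and Tjp3 fell, while Tjp1 and Cgn, which encode cytoplasmic scaffolds, had overlapping values between the groups.

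The 4 epithelial genes that rose encode intermediate filament proteins or their anchor. Krt8 was at 7.02 and 11.7 FPKM in EpiLCs and 354 and 376 FPKM in EpiSCs (log2 difference 5.18, standard error 0.61, limma adjusted p = 2.90e-05). Krt18, its filament partner, rose from 24.3 and 35.1 FPKM to 370 and 363 FPKM. Krt19 and the desmosome gene Dsp rose by 4.57 and 1.93 on the log2 scale. The grainyhead word AACCNGTT, searched on both strands, was found in promoters of 2 of the 25 epithelial genes with a RefSeq promoter, beside 2.35% of all genes. It was present in 1 of the 15 that fell, Rab25, whose 200 bases before the start are shown with the word in capitals, as the 1 member of the group that fell and held it.
Rab25, chr3:88548280-88548479, minus strand: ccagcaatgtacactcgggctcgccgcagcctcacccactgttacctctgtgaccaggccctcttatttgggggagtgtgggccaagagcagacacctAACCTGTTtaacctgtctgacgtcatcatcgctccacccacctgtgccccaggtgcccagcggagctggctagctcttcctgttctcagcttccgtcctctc

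**Figure D2:**
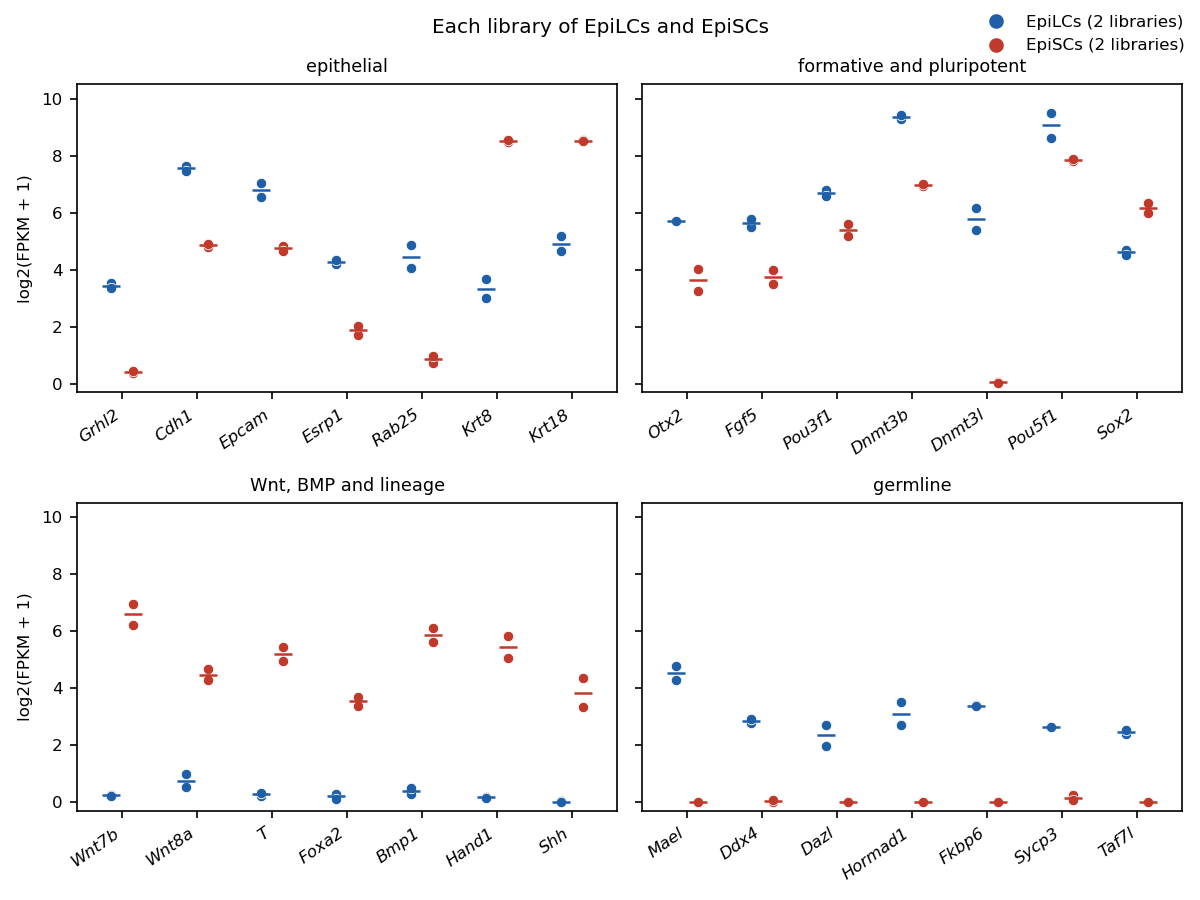
Log2(FPKM + 1) (y axis) of 28 genes in 4 panels, with 1 point for each of the 2 EpiLC (blue) and 2 EpiSC (red) libraries and a line at the group mean. Krt8 and Krt18 lie above their EpiLC values while Grhl2, Cdh1, Epcam, Esrp1 and Rab25 lie below, and the germline genes lie at or near 0 in EpiSCs.

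Genes that the study lists for the primed state were higher in EpiSCs. This list was chosen on these samples too, so that all 16 passing with an increase (20.4% of all genes did) is a description and not independent evidence. The median log2 difference was 3.24. T, the Brachyury factor of the primitive streak, was at 0.168 and 0.256 FPKM in EpiLCs and 30.1 and 42.5 FPKM in EpiSCs (log2 difference 4.93, standard error 0.54, limma adjusted p = 1.50e-05). Sox1, which marks neural ectoderm, rose from 1.26 and 0.735 FPKM to 19.6 and 13.2 FPKM. Shh and Nkx6-1, of the ventral neural tube and its floor plate, were under 0.1 FPKM in both EpiLC libraries and at 19.5 and 9.17 FPKM and 7.70 and 4.46 FPKM in EpiSCs. Genes of several lineages were therefore present in the same EpiSC libraries, and bulk RNA cannot show whether single cells held them together. Likewise a change in the share of cells that make an RNA cannot be told apart from a change in RNA per cell.

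A separate list of primitive streak and endoderm genes shares T with the primed list. Of its 18 genes tested 4 rose (22.2%, beside 20.4% of all genes) and 0 fell, namely T, Cdx2, Foxa2 and Nog. Without EpiSCs replicate 1 or 2, 2 of the 4 were no longer tested and 1 lost its call. Foxa2, a forkhead factor of endoderm and node, was at 0.230 and 0.0915 FPKM in EpiLCs and 12.1 and 9.33 FPKM in EpiSCs, and its call (limma adjusted p = 0.0119) was lost without EpiLCs replicate 2 or either EpiSC library (0.0528 to 0.0654). Sox17, Gata4, Mixl1 and Gsc stayed at or under 1.2 FPKM in all 4 libraries. Of 7 early neural genes tested, 6 rose (85.7%, beside 20.4% of all genes), namely Sox1, Nes, Sox11, Tubb3, Nkx6-1 and Olig3. Sox1 and Nkx6-1 are also in the primed list, while Pax6 and Six3 were too low to be tested. The call of Tubb3 was lost without EpiLCs replicate 1 (limma adjusted p = 0.0586). Olig3, a helix-loop-helix factor of the dorsal neural tube, was listed at 0 in both EpiLC libraries and had 11.02 and 12.6 FPKM in EpiSCs. Hand1, known from lateral mesoderm, heart and trophoblast, rose from 0.145 and 0.114 FPKM to 32.7 and 56.8 FPKM (log2 difference 5.29, standard error 0.20, limma adjusted p = 1.11e-09).

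Most Wnt ligand genes that were tested were higher in EpiSCs. Of 10 ligand genes tested 7 rose (70.0%, beside 20.4% of all genes) and 0 fell. The remaining 9 were at 1.28 FPKM or less in each of the 4 libraries. Wnt7b stood out, at 0.208 and 0.162 FPKM in EpiLCs and 74.2 and 124 FPKM in EpiSCs (log2 difference 6.35, standard error 0.21, limma adjusted p = 4.71e-10). It lies on chromosome 15 of mm9 from 85365869 to 85412251. In no fPSC library did Wnt7b exceed 0.228 FPKM. Wnt8a rose from 0.976 and 0.457 FPKM to 18.6 and 24.6 FPKM, and the fPSC libraries ran from 8.68 to 24.2 FPKM. The other 5, Wnt1, Wnt4, Wnt5a, Wnt9a and Wnt10b, stayed under 4.5 FPKM in EpiSCs. Without EpiSCs replicate 1 or 2, 6 of the 7 ligands were no longer tested. These 6 entered the test only because both EpiSC libraries held them at 1 FPKM, so the filter favoured a rise among them. Porcn, the acyltransferase that ligands need for secretion, rose from 0.504 and 0.458 FPKM to 4.76 and 8.08 FPKM.

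Among receptors and inhibitors of the pathway 9 of 29 rose and 4 fell (44.8% passed, beside 35.9% of all genes). Fewer passed without EpiLCs replicate 2 or EpiSCs replicate 1. Fzd1, Fzd2 and Fzd10 were among the 9, and Fzd10 lost its call without EpiLCs replicate 2 (limma adjusted p = 0.0514). Of 15 targets, 7 rose and 2 fell, and 4 passed without EpiLCs replicate 2 or without EpiSCs replicate 2. The shares of the targets higher and lower were 46.7% and 13.3%, beside 20.4% and 15.5% of all genes. Axin2, a feedback target common to many tissues, was at 3.22 and 1.91 FPKM in EpiLCs and 5.82 and 8.46 FPKM in EpiSCs. The groups did not overlap, but the call of Axin2 (limma adjusted p = 0.0356) was lost without EpiLCs replicate 2 (0.213), EpiSCs replicate 1 (0.0595) or EpiSCs replicate 2 (0.211), with no filter (0.0522) and after upper-quartile scaling (0.0588). Ccnd1, which encodes cyclin D1 and also answers to growth factors and adhesion, rose from 55.0 and 57.6 FPKM to 293 and 361 FPKM. Tcf7 and Nkd2 were the targets that fell, while Lef1 overlapped between the groups. The call of Tcf7 was lost without any 1 library (limma adjusted p from 0.0688 to 0.16) and after median-ratio scaling (0.0926), and that of Nkd2 without EpiLCs replicate 2 (0.0656) or EpiSCs replicate 2 (0.1).

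The Nodal list was near the background. Of 19 genes 4 rose and 2 fell, 31.6% in all beside 35.9% of all genes, and the median log2 difference was 0.17. Nodal itself was at 25.7 and 17.9 FPKM in EpiLCs and 10.2 and 15.4 FPKM in EpiSCs, and Lefty1, Lefty2, Foxh1, Smad2 and Smad4 did not pass. The coreceptor gene Tdgf1 fell from 116 and 142 FPKM to 36.1 and 35.1 FPKM (limma adjusted p = 0.0015). Furin, a convertase that processes Nodal and many other proteins, rose from 5.33 and 2.71 FPKM to 79.7 and 97.7 FPKM (log2 difference 4.20, standard error 0.56, limma adjusted p = 8.07e-05). The FGF and ERK list was near the background too, with 4 of 22 genes higher and 4 lower (36.4% in all), and 5 passed without EpiLCs replicate 2 or EpiSCs replicate 1. Of the ligands, Fgf4 fell from 58.6 and 58.9 FPKM to 2.88 and 3.03 FPKM and Fgf5 fell as given above, Fgf10, Fgf15 and Fgf17 did not pass, and Fgf8 rose from 3.11 and 1.03 FPKM to 15.1 and 20.0 FPKM. The feedback genes Spry4, Dusp4 and Etv4 overlapped between the groups.

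BMP and TGF-beta genes were higher, at 56.5% of those tested beside 20.4% of all genes. Of 23 genes tested 13 rose and 0 fell, with a median log2 difference of 1.45, and 7 passed without EpiSCs replicate 2. Bmp1, which despite its name encodes a protease that matures procollagen, rose from 0.228 and 0.427 FPKM to 48.4 and 68.6 FPKM. The ligand genes Tgfb1, Tgfb2 and Tgfb3 rose, Tgfb2 from under 0.01 FPKM in both EpiLC libraries to 11.7 and 10.3 FPKM. Tgfbi, which TGF-beta induces in many cells, rose by 6.08 on the log2 scale. Among the genes that BMP signalling induces, Id1 was at 0.912 and 1.04 FPKM in EpiLCs and 13.96 and 9.69 FPKM in EpiSCs. Its call (limma adjusted p = 0.0144) was lost when any 1 of the 4 libraries was left out (0.0517 to 0.0835).

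**Figure D3:**
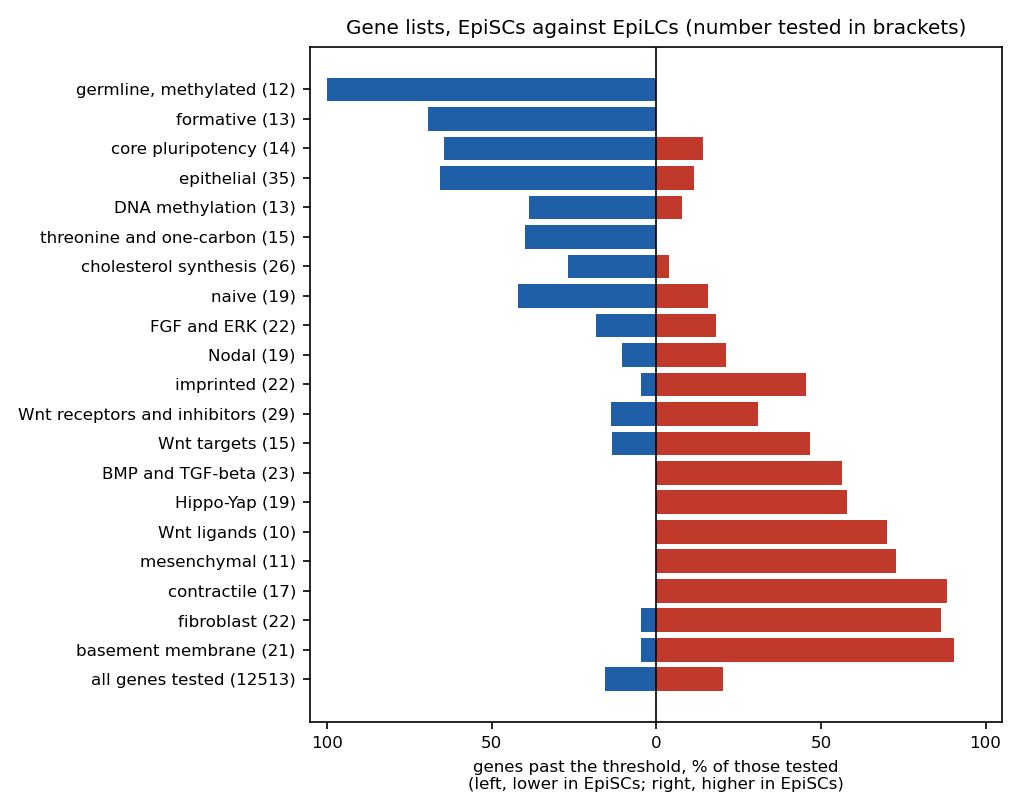
Share of the tested genes of 20 lists, and of all 12513 genes, that passed the limma threshold as higher (red, right) or lower (blue, left) in EpiSCs. The germline list reaches 100% on the left and the basement membrane, contractile and fibroblast lists over 85% on the right, beside 20.4% and 15.5% for all genes.

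Because EpiSCs were grown on feeders, genes of fibroblasts were counted apart. Of 22 fibroblast genes tested 19 rose and 1 fell (86.4% and 4.55%, beside 20.4% and 15.5% of all genes). Without EpiSCs replicate 1 or 2, 11 of the 20 that passed were no longer tested. The filter thus took in genes because EpiSCs held them, which favoured a rise. The summed level of the 28 listed genes was 41.3 and 37.8 FPKM in EpiLCs, 494 and 627 FPKM in EpiSCs and 23.4 to 38.3 FPKM in the 7 fPSC libraries. Col1a1, the main chain of collagen I, was at 0.405 and 0.306 FPKM in EpiLCs and 111 and 153 FPKM in EpiSCs (log2 difference 6.60, standard error 0.20, limma adjusted p = 2.34e-10). Col1a2 and Col3a1 rose with it. The list did not move as 1 block. Dcn, which encodes the proteoglycan decorin and is abundant in fibroblasts, fell from 4.48 and 6.10 FPKM to 2.82 and 1.88 FPKM. Thy1 and Mfap5 overlapped between the groups. Lum, Postn and Prrx1 were between 0.274 and 1.02 FPKM in EpiSCs, Fap and Dpt were under 0.04 FPKM, and Ogn was listed at 0 in both EpiSC libraries. How much of the RNA came from feeders was not tested.

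**Figure D4:**
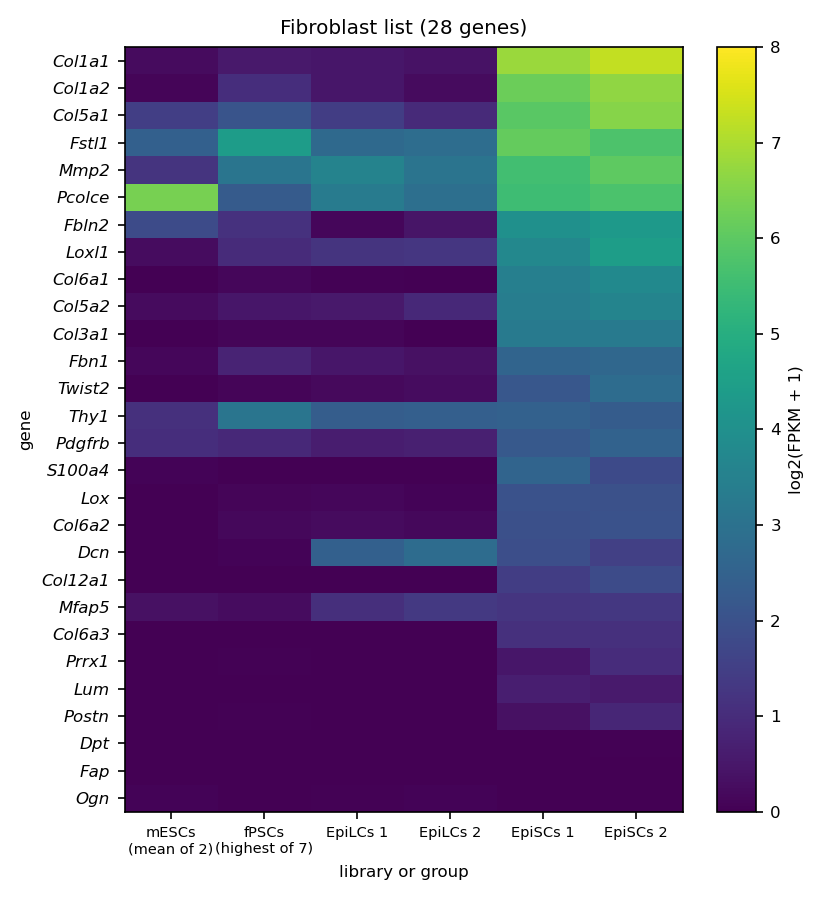
Log2(FPKM + 1) (colour) of the 28 genes of the fibroblast list (rows) in mESCs (mean of 2), fPSCs (highest of 7) and each EpiLC and EpiSC library (columns), ordered by the EpiSC mean. Collagens lead in both EpiSC libraries, Dcn is higher in EpiLCs, and Dpt, Fap and Ogn are at or near 0 throughout.

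Several other groups rose beside the fibroblast genes. The share higher was 88.2% of contractile, 72.7% of mesenchymal, 90.5% of basement membrane and 57.9% of Hippo-Yap genes tested, beside 20.4% of all genes. Of 17 contractile genes tested 15 rose and 0 fell, with a median log2 difference of 3.19. Acta2, of smooth muscle actin, was at 0.934 and 1.54 FPKM in EpiLCs and 161 and 160 FPKM in EpiSCs, and Tagln was at 2.34 and 4.73 FPKM and at 276 and 322 FPKM. Acta1 and Actc1 rose too, although actin genes are so alike that reads could have been split among them. Of 11 mesenchymal genes 8 rose and 0 fell (without EpiSCs replicate 1 or 2, 5 passed, 2 were no longer tested and 1 lost its call). Vim, of vimentin filaments, rose from 46.0 and 44.9 FPKM to 1107 and 1232 FPKM, and Cdh2, of N-cadherin, rose from 1.88 and 2.204 FPKM to 30.6 and 30.04 FPKM. The factor genes Snai1, Snai2, Zeb1 and Zeb2 rose, while Twist1 did not pass. Of 21 basement membrane genes 19 rose, and Itgb4, an integrin of hemidesmosomes, was the 1 that fell, by less than 1.5-fold without EpiSCs replicate 1. Of 19 Hippo-Yap genes 11 rose and 0 fell, and 7 passed without EpiSCs replicate 2. Among these the targets Ctgf, Cyr61 and Ankrd1 rose, Ankrd1 from 0 in both EpiLC libraries to 10.6 and 10.97 FPKM, while Yap1 itself overlapped between the groups.

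The contractile list had 17 genes with a RefSeq promoter, and 5 of them (29.4%) held a CArG box, the site of serum response factor, beside 1.81% of all genes. Of the 14 that rose, 4 held it. The stretch before the start of 2 of these is shown with the CArG box in capitals, since this box marks muscle actin promoters.
Acta1, chr8:123894776-123894975, minus strand: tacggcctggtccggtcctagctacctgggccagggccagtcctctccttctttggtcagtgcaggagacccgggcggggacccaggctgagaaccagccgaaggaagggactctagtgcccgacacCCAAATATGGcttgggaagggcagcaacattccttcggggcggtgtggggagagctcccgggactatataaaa
Actc1, chr2:114052876-114053075, minus strand: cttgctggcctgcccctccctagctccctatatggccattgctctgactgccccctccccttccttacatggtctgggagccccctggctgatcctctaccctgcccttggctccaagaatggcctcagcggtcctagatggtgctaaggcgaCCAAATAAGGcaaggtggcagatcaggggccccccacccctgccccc
Actc1 was at 0.269 and 0.760 FPKM in EpiLCs and 31.8 and 28.3 FPKM in EpiSCs. For the Hippo-Yap genes GGAATG, searched on both strands, was found in 8 of 14 genes with a promoter (57.1%) and in 16.6% of all genes.

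The genes of the fibroblast, contractile and mesenchymal lists were few among those that differed. Without these lists 2506 genes were higher and 1936 lower. The lists hold only 22, 17 and 11 genes tested, so leaving them out could change the counts by little. Feeder RNA would also include genes outside these lists, and its part in the other calls was not tested. Of the 2548 genes higher in EpiSCs, 854 (33.5%) reached the EpiSC mean in at least 1 of the 15 bulk libraries that were neither EpiSCs nor EpiLCs, and 225 were under 1 FPKM in all 15. Increases were also ranked outside the fibroblast, contractile, mesenchymal, basement membrane and no poly(A) tail lists, among genes at 10 FPKM or more. The 10 largest were Anxa2, Wnt7b, Tnc, Bgn, Anxa5, Loxl2, Cryab, Tgfbi, Anxa1 and Hmga2. Of these, Tnc, Bgn, Loxl2 and Tgfbi encode proteins that form or modify matrix. Anxa2, Anxa5 and Anxa1 encode calcium-dependent membrane binding proteins, and Hmga2 encodes a chromatin protein of embryonic cells. Hmga2 was at 6.66 and 4.28 FPKM in EpiLCs and 350 and 316 FPKM in EpiSCs. Anxa2 was at 0.528 and 1.21 FPKM and at 138 and 176 FPKM. Markers of other cell types were summed as well. Their counts stand beside 20.4% higher and 15.5% lower of all genes. The trophoblast list summed to 6.24 and 6.73 FPKM in EpiLCs and to 52.9 and 83.8 FPKM in EpiSCs, with 3 of 6 genes tested higher and 1 lower. Most of this was Hand1, and Elf5, a defining factor of trophoblast stem cells, was at 0 in both EpiSC libraries. Without EpiSCs replicate 1 or 2, 2 of these 4 calls were no longer tested and 1 was lost. The blood and macrophage list summed to 11.7 and 7.7 FPKM and to 44.8 and 50.05 FPKM. Laptm5 alone had 39.1 and 43.9 FPKM in EpiSCs and was the 1 of 3 genes tested that rose, while Tyrobp was listed at 0 in all 4 libraries and Ptprc stayed under 0.1 FPKM. The visceral and parietal endoderm list summed to 3.88 and 2.45 FPKM and to 16.8 and 25.7 FPKM. There 2 of 7 genes tested rose (1 passed without EpiLCs replicate 2 or EpiSCs replicate 1 and 0 without EpiSCs replicate 2), with Ttr at 0 in all 4 libraries and Afp under 0.1 FPKM. Of the 5 endothelial genes tested 1 rose and 3 fell (2 passed without EpiSCs replicate 1), with summed levels of 5.87 and 6.69 FPKM in EpiLCs and 4.48 and 6.72 FPKM in EpiSCs. The part of such cells in the results was not tested.

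The 2 EpiSC libraries were set against each other. Replicate 2 minus replicate 1 had a median of -0.01 on the log2 scale over all genes tested and of 0.14 over the genes higher in EpiSCs. For the lists this median was 0.23 for fibroblast, 0.17 for contractile, 0.30 for basement membrane and -0.01 for mesenchymal genes, beside 0.27 for the primed genes of the study and 0.35 for Wnt ligands. It was -0.32 for early neural genes. For each of these lists the median between EpiSCs and EpiLCs was larger in size than this difference.

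Metabolic lists had medians below 0, beside -0.03 for all genes. Their shares that passed are set beside 35.9% of all genes, and those of cholesterol synthesis (30.8%) and glycolysis (25.0%) lay below it. Of 15 genes of threonine and one-carbon metabolism 6 fell and 0 rose, with a median log2 difference of -0.67 (40.0% passed, and 4 genes did so without EpiLCs replicate 2 and 3 without EpiSCs replicate 2). Gcat fell from 37.1 and 49.8 FPKM to 10.8 and 10.1 FPKM and Gldc, of the glycine cleavage system, from 50.2 and 70.3 FPKM to 18.9 and 23.6 FPKM. Of 26 cholesterol synthesis genes 7 fell and 1 rose, with a median of -0.47 (30.8% passed, and 5 genes did so without EpiLCs replicate 2). Hmgcs1 fell from 158 and 175 FPKM to 71.7 and 61.5 FPKM. Of 10 fatty acid synthesis genes 2 rose and 4 fell (60.0% passed), with a median of -0.35. Elovl6, a fatty acid elongase, fell from 19.3 and 19.05 FPKM to 4.30 and 5.61 FPKM. Of 20 glycolysis genes 1 rose and 4 fell (25.0% passed), and between 1 and 2 passed when a library was left out.

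Imprinted genes and cell cycle genes held large increases. The share higher was 45.5% of the imprinted genes tested, beside 20.4% of all genes. Of 22 imprinted genes 10 rose and 1 fell, and 7 and 6 passed without EpiSCs replicate 1 and 2. H19, a noncoding RNA, went from 1.68 and 2.13 FPKM to 73.4 and 57.6 FPKM, and Igf2, its neighbour, from 1.27 and 0.558 FPKM to 35.2 and 45.1 FPKM. Nnat rose from 4.99 and 8.85 FPKM to 237 and 237 FPKM. Meg3, Dlk1, Mest and Zdbf2 overlapped between the groups. Of 14 cyclin and inhibitor genes 5 rose and 1 fell (42.9% passed, beside 35.9% of all genes). Cdkn1c, an imprinted inhibitor of cyclin-dependent kinases, rose from 14.4 and 14.5 FPKM to 120 and 226 FPKM. Ccne1 was the 1 that fell, and its call was lost without EpiLCs replicate 2 (limma adjusted p = 0.0621) or EpiSCs replicate 2 (0.0694).

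Sex-linked genes differed as well. Eif2s3y was at 20.6 and 33.5 FPKM in EpiLCs and at 0.0182 and 0.0298 FPKM in EpiSCs, and Ddx3y and Uty were under 0.03 FPKM in both EpiSC libraries. The call of Eif2s3y was lost without EpiLCs replicate 2, and those of Ddx3y and Uty without any 1 library. Ddx3y also lost its call with no filter on low values (limma adjusted p = 0.0582). The spread of the fit includes the fPSC libraries, in which Eif2s3y ran from 0 to 21.5 FPKM. With EpiLCs and EpiSCs alone the limma adjusted p was 5e-05 for Eif2s3y, 7.08e-05 for Ddx3y and 7.42e-05 for Uty. Xist, the RNA of the inactive X chromosome, was at 1.46 and 0.330 FPKM in EpiLCs and 5.96 and 7.11 FPKM in EpiSCs. A difference in the lines used, or in their sex chromosomes, and a difference in state cannot be told apart in this design. Over the 427 X-linked genes tested with 1 position in mm9 the median log2 difference was -0.10, within the range of the 19 autosomes (-0.14 to 0.06).

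Promoter marks were available for fPSCs, which are neither of the cell types compared, as 1 file for each mark. Among 10901 tested genes with 1 start site in mm9, the share with much of the repressive mark H3K27me3 in fPSCs was taken for each direction of the comparison. Of the 2341 genes higher in EpiSCs 20.7% fell in the highest 10% of promoters by mean H3K27me3 within 5000 bp of the start, against 8.28% of the 1691 lower genes and 6.8% of the 6869 genes that did not pass. Of 10 Wnt ligands 8 were in this class, as were 10 of 15 primed genes. Wnt7b had a mean H3K27me3 of 3.77 RPKM and T of 3.07 RPKM, beside a median of 0.328 RPKM over all genes tested. DNA methylation showed another division. A mean of 50% or more within 1000 bp of the start was found at 21.7% of the lower genes, 14.8% of the higher genes and 11.9% of those that did not pass. All 12 germline genes tested were in this class, with a median of 95.3% (the list was drawn up from genes with methylated promoters). Dnmt3l and Dppa4, both lost in EpiSCs, were at 97.7% and 91.2% in fPSCs, where their RNA was under 0.7 FPKM as well. Grhl2 was at 0.588%. With 1 file per mark and no coverage, no spread between replicates can be given, and no mark was measured in EpiSCs or EpiLCs here.

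**Figure D5:**
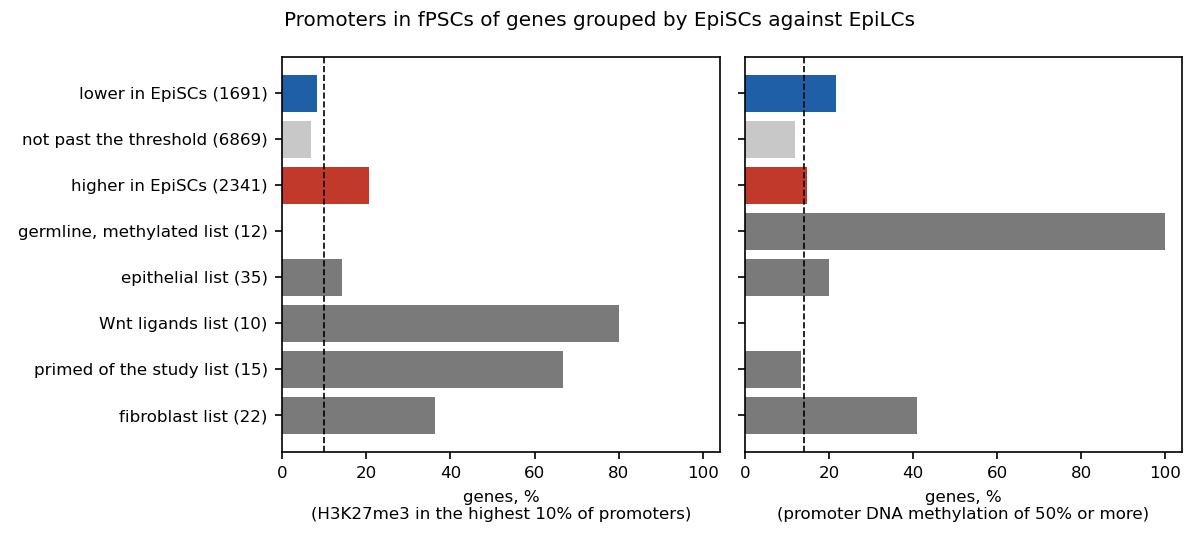
Share of genes (x axis, %) with promoter H3K27me3 in the highest 10% (left) or promoter DNA methylation of 50% or more (right) in fPSCs, by the EpiSC against EpiLC comparison and for 5 lists (number of genes in brackets), with a dashed line at the share of all genes tested. Genes higher in EpiSCs stand at 20.7% on the left, and the germline list at 100% on the right.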

How the data were processed

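Bulk RNA-seq of the series was deposited by the authors as 1 table of FPKM for 19 libraries. Per the labels and the methods of the study, reads were trimmed with cutadapt, aligned with TopHat2 2.1.1 to mouse transcripts of mm9 and quantified with Cufflinks 2.1.1. FPKM are scaled for depth and transcript length, counts were not given, and the strand setting is not given in the sources used here, so overlapping genes cannot be separated. For ChIP-seq of fPSCs the authors deposited RPKM per 100 bp bin (bins at 0 are not listed) and for bisulfite data the methylated fraction per window of 100 bp without coverage, both on mm9.

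Of 23608 entries 4 were dropped for a repeated name, and 23 entries carry a date in place of a gene name. Genes that reached 1 FPKM in 2 or more libraries were tested on log2(FPKM + 1) with limma 3.58.1 in R 4.3.3 (trend option, two-sided) in 1 fit of 13 libraries, namely EpiLCs, EpiSCs, mESCs and 7 fPSC libraries, which share 1 estimate of the spread (9 residual degrees of freedom). Since FPKM are not counts, no count test was run. Promoter means took bins within 5000 bp (marks) or 1000 bp (methylation, at least 3 windows) of the start in the GENCODE annotation of mm9, where bins not listed count as 0 for the marks. Motifs were searched in RefSeq promoters of GRCm38.p6, and coordinates of the 2 builds were not joined.

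The 36 gene lists and the members named were chosen with earlier results of these data known. Genes named are list members, the 10 largest rises and falls past the threshold without overlap and with a group mean of at least 10 FPKM, the same for rises outside the fibroblast, contractile, mesenchymal, basement membrane and no poly(A) tail lists, and genes the study names. Lists are described by counts and medians, without a set test. For lists not described in the text, of the primordial germ cell list 4 of 10 passed, of MHC class I 4 of 8 and of no poly(A) tail 1 of 14. Alternatives were a pseudocount of 0.1, no filter or a minimum of 3 FPKM, upper-quartile and median-ratio scaling, other sets of libraries in the fit, limma's robust option, a replicate block, each library left out and narrower promoter windows. Single-cell tables of the series were not used here. Some single genes are not reported here.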

Additional observations from a re-analysis of the deposited data

How the results depend on the processing

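Of the 4488 genes called, 0 were called the other way in any of 14 planned refits. In all 10 refits that kept every EpiLC and EpiSC library 3098 were called the same way, and 1733 in all 14. Some of these 10 left out mESC or fPSC libraries. Of the rest, 2202 lost the call in at least 1 refit, and 553 were not tested in at least 1 and called wherever they were tested. Over 501 named genes, 44 of 5832 values from fits with every EpiLC and EpiSC library lost the call, 310 gained it and 0 were reversed. The lists' counts moved by over 1.5 times in 30 of 432 such fits. The median of all genes was -0.097 after upper-quartile scaling and 0.018 after median-ratio scaling, and 49.8% of calls were higher after the former, beside 56.8%. With a minimum of 3 FPKM, 3 Wnt ligands passed, fewer genes being tested. The mean r between groups was 0.80 with a pseudocount of 0.1 and 0.918 over all genes. Narrower windows gave median H3K4me3 of 2.96 RPKM for all genes tested, 2.51 for higher, 3.01 for lower and 3.13 for genes that did not pass, and median methylation of 3.33%, 3.50%, 5.63% and 2.90%.

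Without 1 library the genes that passed ran from 2425 to 3621, those higher from 1462 to 2028, those lower from 963 to 1593, the median of all genes from -0.069 to 0.022, the Wnt ligands from 1 to 8 and the fibroblast genes from 9 to 20. Here the group of 1 library is assumed to vary like the other groups, and 72 to 275 of the called genes were no longer tested, while 1067 to 1826 were tested and lost the call. The fall in Wnt ligands and fibroblast genes was of genes no longer tested.

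EpiLCs and EpiSCs share only replicate numbers. Their replicate differences had a Pearson r of -0.13 across genes. With the replicate differences of mESCs, r was 0.204 for EpiLCs and -0.199 for EpiSCs. These values cannot decide whether the numbers pair the samples. With the replicate block over mESCs, EpiLCs and EpiSCs 5196 genes passed, beside 5357 without it. In fits of EpiLCs and EpiSCs alone, chosen after seeing the data, 5224 genes passed with the block and 6053 with the numbers crossed. FPKM without counts set no limit of detection, so a gene listed at 0 may be present below what these libraries could show.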
